A study of Arabidopsis thaliana with 27 samples.

Results

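In whole Arabidopsis rosettes kept at high CO2, a set of 56 ATH1 probe sets lost at least 2 log2 units of signal between 0 h and 8 h in the wild type and in 2 photorespiratory H2O2 lines. The same 56 probe sets stood, after those 8 h, within 1 log2 unit of the high CO2 level in plants moved to ambient CO2. The members were chosen by these measured values out of 22746 probe sets: the difference of group means, 8 h at high CO2 minus 0 h, was -2 or lower in every genotype, and 8 h at ambient minus 8 h at high CO2 was under 1 in size in every genotype. A group of 52 probe sets (those of HYH, DFR and the UGT family and 1 without a gene name) was set aside by name, and 0 of these met both conditions. The fall and the small CO2 difference therefore define the members and are given as a description, with no test. Only 21 members (37.5%) could be paired with a single gene, against 59.4% of all probe sets, and 35 have no gene name here.

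Photosynthetic cells refit much of their transcript pool between night and day. The circadian clock sets the time of expression of many genes, light acts through photoreceptors and chloroplasts, and sugars and nitrate feed back on transporters, growth genes and catabolic enzymes. Transcripts that are high before or at the start of the light period and low at its middle include transporters and transcription factors as well as many genes of unknown role. Photorespiration, the salvage of the glycolate made when Rubisco takes up O2 in place of CO2, is strong in air and weak at high CO2, and it yields H2O2 in the peroxisome.

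The plants were Col-0 (WT), the catalase-deficient insertion line cat2-2 (cat2), with 10 to 15% of the wild-type catalase activity, and GO5, a line that expresses glycolate oxidase in the chloroplasts. All were grown in soil at 3000 ppm CO2 with days of 16 h at 75 µmol quanta per square metre and second and 22 °C, and nights of 8 h at 18 °C. At 3 weeks, rosettes were taken at 0 h, at 8 h from plants left at 3000 ppm (high CO2), and at 8 h from plants that had been brought to 380 ppm (ambient CO2). Each of these 9 groups held 3 biological replicates, and each replicate was a pool of 2 whole rosettes from a single mutant allele or a single transgenic line. The labels give no clock time for 0 h, so hours after 0 h are hours into the experiment and not a stated time of day. The catalase and glycolate oxidase genes had no single-gene probe set, and the genotypes were not checked on them here. Of the leaf markers, 2 of 7 were measured: RCA, Rubisco activase, had a WT mean of 13.3 log2 at 0 h and PRK, phosphoribulokinase, one of 12.05. The root marker EXPA7, the single one of 5 with a measured probe set, lay at 2.82 log2 in WT at 0 h, near the bottom of the scale.

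Values are log2 signals that run from 1.61 to 13.59, with array medians between 5.28 and 5.52, and precision is limited by the number of arrays. Correlations within groups lay between 0.962 and 0.995, and 0 pairs of arrays were identical. The arrays labelled biological replicate 3 stood apart for these genes in every group, so that values are given by replicate number below, and results are also given for replicates 1 and 2 only. RNA quality was read from the GAPDH controls, as signal of the 3' minus the 5' probe sets. This gave 1.53 ± 0.08 log2 (SD, n = 3) for the WT arrays of 0 h and 2.09 ± 0.31 for those of 8 h at high CO2. In cat2 it went from 1.61 ± 0.13 to 1.76 ± 0.09 and in GO5 from 1.49 ± 0.08 to 1.83 ± 0.07, and its part in the falls was not tested. In these whole-rosette samples, fewer cells of a type and less RNA per cell cannot be told apart.

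Averaged over the 3 genotypes, the members fell by a median of 2.83 on the log2 scale, or 7.13-fold. The mean fall reached 3 log2 units or more in 25 members and 4 or more in 8. The median difference was -2.84 in WT, -2.72 in cat2 and -3.01 in GO5, and within a member the 3 genotypes differed by a median of 0.33. The spread over genotypes stayed under 0.5 log2 in 47 members and was widest, 1.24, for AT1G13650. GO5 had the most negative value of the 3 in 36 members, cat2 in 11 and WT in 9. In 54 members all 9 arrays of the 8 h high CO2 groups lay below all 9 arrays of the 0 h groups (6.43% of all probe sets did), and in 53 members all 18 arrays of both 8 h conditions did (3.24% of all). A limma fit called 54 members lower in WT at an adjusted p under 0.05, where 6.5% of all probe sets were called lower. It called 54 in cat2 (5.92% of all) and 55 in GO5 (6.87%). The same contrast chose the members, so nothing is read from these counts.

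**Figure D1:**
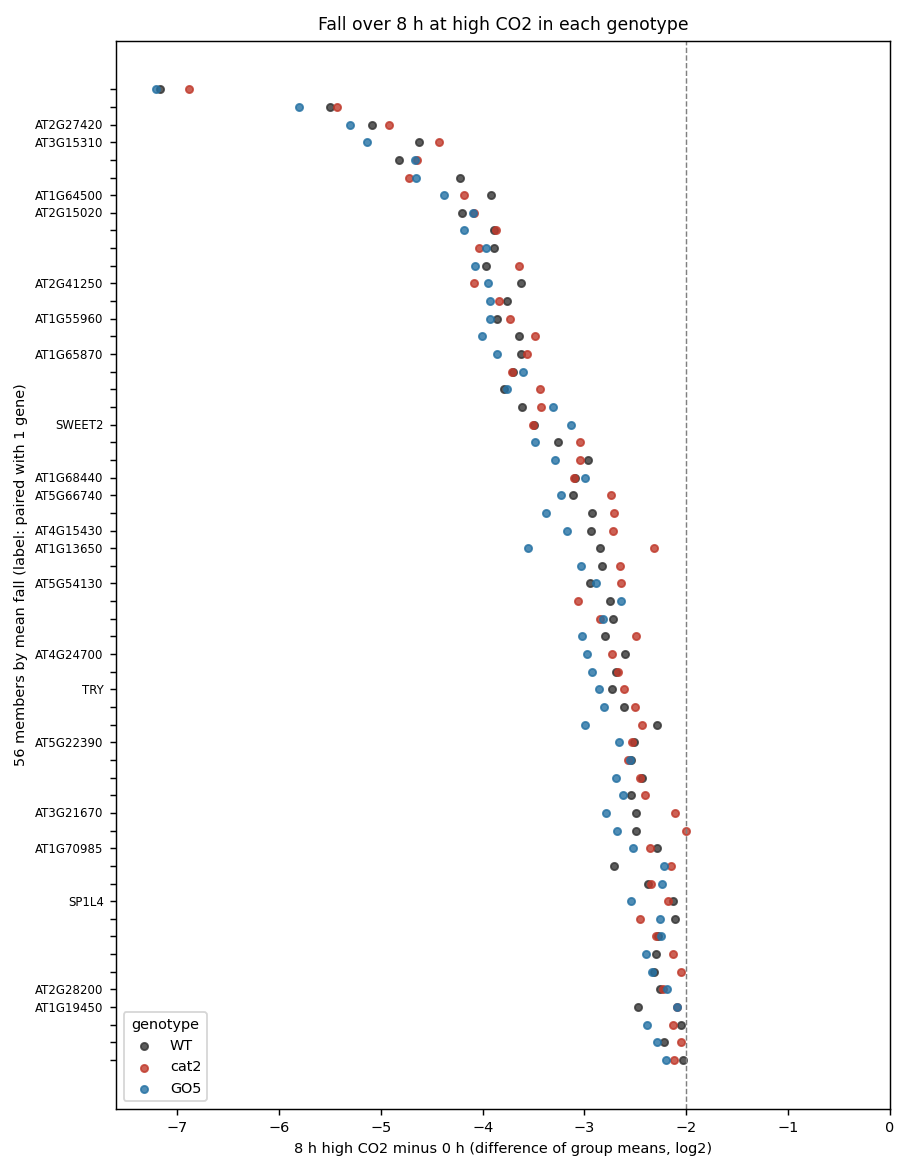
Difference of group means, 8 h at high CO2 minus 0 h (log2, x axis), for each of the 56 members (y axis, ordered by the mean over genotypes), with 1 point per genotype and the limit of -2 as a dashed line. Members paired with a single gene are labelled, and the 3 genotypes of a member lie within 0.5 log2 of each other in 47 of 56 cases.

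The largest fall belonged to a probe set with no paired gene, 261569_at. In WT it read 10.69, 10.51 and 11.49 log2 at 0 h (replicates 1, 2 and 3), 3.57, 3.60 and 4.01 after 8 h at high CO2, and 3.53, 4.09 and 5.00 after 8 h at ambient CO2. Its mean over the genotypes fell by 7.09 on the log2 scale. In cat2 it read 10.41, 10.52 and 11.46, then 3.66, 3.64 and 4.43 at high CO2 and 4.35, 4.03 and 4.42 at ambient. No array of either 8 h condition came within 5 log2 units of an array at 0 h in WT. GO5 gave the same picture, with 10.74, 10.77 and 11.45 at 0 h, 3.51, 3.57 and 4.23 at 8 h high CO2 and 3.81, 3.56 and 5.51 at 8 h ambient.

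The named members include 3 genes of transporter families, SWEET2, AT1G19450 and AT3G21670. SWEET2 encodes a sugar carrier of the vacuole membrane. In WT its signal was 8.90, 8.65 and 9.34 log2 at 0 h, 5.28, 5.28 and 5.84 after 8 h at high CO2 and 6.03, 5.41 and 6.34 at ambient CO2. In cat2 the values were 8.71, 8.95 and 9.17, then 5.22, 5.32 and 5.76 at high CO2 and 5.19, 5.68 and 6.13 at ambient. In GO5 they were 8.83, 8.97 and 9.08, then 5.53, 5.65 and 6.31 at high CO2 and 5.82, 6.25 and 7.32 at ambient. All 9 arrays at 0 h lay above all 18 later ones, and GO5 replicate 3 at ambient was the highest of the later arrays. The fall at high CO2 was 11.3-fold in WT, 11.4-fold in cat2 and 8.77-fold in GO5, and the CO2 difference was 0.46, 0.24 and 0.64 log2.

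AT1G19450, a major facilitator of the ERD6-like sugar transporter family, started high and fell less. In WT it read 10.22, 10.18 and 10.49 log2 at 0 h, 7.49, 7.27 and 8.70 at 8 h high CO2 and 7.28, 7.35 and 9.02 at 8 h ambient. In cat2 it read 10.12, 10.15 and 10.40, then 7.85, 7.74 and 8.82 and then 7.31, 7.59 and 8.89. In GO5 it read 10.26, 10.16 and 10.30, then 7.93, 7.49 and 9.02 and then 7.20, 7.23 and 8.59. The 0 h arrays were close together in every genotype, while in all 6 later groups replicate 3 stood well above the other 2 arrays. The group means differed by 5.57-fold in WT, 4.25-fold in cat2 and 4.27-fold in GO5.

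AT3G21670 belongs to the nitrate and peptide transporter family. Its WT arrays read 10.39, 10.25 and 11.22 log2 at 0 h, 7.53, 7.63 and 9.23 at 8 h high CO2 and 8.65, 7.90 and 10.00 at 8 h ambient. The cat2 arrays read 10.26, 10.30 and 11.24, then 8.47, 7.85 and 9.16 and then 8.51, 8.35 and 9.91. The GO5 arrays read 10.36, 10.62 and 11.22, then 7.78, 7.43 and 8.61 and then 8.37, 8.15 and 9.90. Replicate 3 was the highest array in all 9 groups, and its ambient arrays came close to, but stayed below, the lowest 0 h array of the same genotype. The fall was 5.62-fold in WT, 4.31-fold in cat2 and 6.93-fold in GO5, with a positive CO2 difference of 0.72, 0.43 and 0.86 log2. AT4G15430, a membrane protein of the ERD family of channel-like proteins, had differences of -2.93, -2.72 and -3.17 in WT, cat2 and GO5 with the smallest error of the 12 largest single-gene falls (SE 0.21). Its WT group means were 6.37 ± 0.27 at 0 h, 3.43 ± 0.23 at 8 h high CO2 and 3.54 ± 0.23 at 8 h ambient (SD, n = 3).

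Enzymes and redox proteins are described next. AT2G27420 encodes a papain-like cysteine protease and had the deepest fall among named members, 34.1-fold in WT, 30.4-fold in cat2 and 39.5-fold in GO5. Its WT arrays read 7.68, 7.21 and 9.48 log2 at 0 h, 2.77, 3.06 and 3.26 at 8 h high CO2 and 2.98, 3.02 and 4.30 at 8 h ambient. The cat2 arrays read 7.29, 7.58 and 9.22, then 3.12, 2.85 and 3.34 and then 2.82, 2.68 and 3.93. The GO5 arrays read 7.74, 7.92 and 9.28, then 3.09, 2.85 and 3.08 and then 2.78, 2.87 and 5.33. At 8 h all but the replicate 3 ambient arrays lay between 2.68 and 3.34, at the low end of the scale, where 21.2% of all values lie between 2 and 3 and a further fall would hardly show.

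AT1G64500, a member of the glutaredoxin family of thiol-disulfide proteins, fell 15.1-fold in WT, 18.1-fold in cat2 and 20.8-fold in GO5. Its WT arrays were at 8.74, 8.68 and 9.63 log2 at 0 h, 4.74, 4.64 and 5.93 at 8 h high CO2 and 4.59, 4.45 and 6.40 at 8 h ambient. In GO5 they were at 8.90, 8.87 and 9.56, then 4.24, 4.48 and 5.47 and then 4.95, 4.73 and 7.37. In cat2 they were at 8.38, 8.77 and 9.63, then 4.12, 4.58 and 5.54 and then 3.97, 4.95 and 6.57. Replicate 3 was the highest array in all 9 groups, and the groups at 0 h and 8 h did not overlap.

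AT2G41250, a hydrolase of the haloacid dehalogenase-like superfamily, was even across all 9 arrays at 0 h, from 9.82 to 10.20 log2. In WT its arrays at 8 h high CO2 were at 6.08, 6.18 and 7.07 and those at 8 h ambient at 5.41, 4.63 and 7.21. In cat2 they were at 5.14, 5.55 and 7.20 and at 5.47, 6.07 and 7.45, and in GO5 at 5.59, 5.67 and 6.91 and at 5.61, 4.66 and 7.52. After 8 h replicate 3 stood above the other 2 arrays in every group, and at 0 h it did not. AT5G54130, a calcium-binding protein of the endonuclease, exonuclease and phosphatase family, showed the opposite layout. Its replicate 3 arrays at 0 h were at 7.39, 7.42 and 7.27 in WT, cat2 and GO5 against 5.22 to 5.99 in the other 6 arrays, and all 9 arrays at 8 h high CO2 were between 3.19 and 3.89.

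Genes of lipid and cell wall proteins followed. AT1G55960, a lipid-binding protein of the polyketide cyclase-like superfamily, had group means at 0 h of 10.53 ± 0.66 log2 in WT, 10.44 ± 0.66 in cat2 and 10.64 ± 0.45 in GO5 (SD, n = 3). At 8 h high CO2 the means were 6.66 ± 0.25, 6.71 ± 0.37 and 6.71 ± 0.11, and at 8 h ambient 6.55 ± 0.73, 6.53 ± 0.76 and 6.90 ± 1.33. The 3 genotypes were within 0.1 log2 at 8 h high CO2, and the SD was widest in GO5 at ambient, where replicate 3 was at 8.44. AT1G65870, a dirigent-like protein of the kind that steers phenol coupling in cell walls, had means at 0 h of 8.12 ± 1.17 in WT, 8.04 ± 1.03 in cat2 and 8.13 ± 0.91 in GO5. Its means at 8 h high CO2 were 4.50 ± 0.20, 4.48 ± 0.29 and 4.26 ± 0.21, and at 8 h ambient 5.19 ± 0.75, 4.96 ± 0.67 and 4.73 ± 0.80. Its spread at 0 h came from replicate 3, which read 9.44, 9.20 and 9.18 against 7.19 to 7.74 on the other 6 arrays.

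The named regulators were few. TRY is a single-repeat MYB protein that represses trichome fate in neighbouring epidermal cells. Its WT arrays read 6.16, 5.30 and 6.67 log2 at 0 h, 3.24, 3.24 and 3.44 at 8 h high CO2 and 3.84, 3.63 and 4.15 at 8 h ambient. Its cat2 arrays read 5.39, 5.86 and 6.52, then 3.52, 3.21 and 3.21 and then 3.31, 3.14 and 3.92. Its GO5 arrays read 5.55, 5.80 and 6.86, then 3.23, 3.04 and 3.37 and then 3.27, 3.15 and 4.86. The fall was 6.65-fold in WT, 6.1-fold in cat2 and 7.24-fold in GO5, and no later array reached the lowest 0 h array, 5.30. AT2G28200, a C2H2 zinc finger protein, had differences of -2.26, -2.23 and -2.19 in WT, cat2 and GO5, with CO2 differences of 0.07 log2 or less in size. SP1L4, a SPIRAL1-like protein of the cortical microtubules, had differences of -2.13, -2.18 and -2.54 and CO2 differences of 0.06, -0.02 and 0.25.

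The pseudogene AT3G15310 had differences of -4.62, -4.43 and -5.13 in WT, cat2 and GO5. Its WT arrays read 7.95, 7.52 and 8.46 at 0 h, 2.82, 2.88 and 4.36 at 8 h high CO2 and 2.41, 2.56 and 4.17 at 8 h ambient, with replicate 3 highest each time. AT2G15020, a protein without a settled role, differed between 0 h and 8 h at high CO2 by -4.20, -4.09 and -4.09. At 0 h its 9 arrays were between 7.05 and 7.77, and at 8 h ambient replicate 3 read 5.70, 5.86 and 6.04 in WT, cat2 and GO5 against 3.01 to 3.48 on the other 6 arrays. These 2 genes thus differed in where their arrays spread, since AT2G15020 was even at 0 h and AT3G15310 was not. The remaining 6 single-gene members without a role given here were AT1G68440, AT5G66740, AT1G13650, AT4G24700, AT5G22390 and AT1G70985. Their mean differences over genotypes ran from -2.39 log2 for AT1G70985 to -3.06 for AT1G68440. AT1G68440 had group means at 0 h of 8.98 ± 0.57, 8.90 ± 0.58 and 9.06 ± 0.45 in WT, cat2 and GO5, and of 5.88 ± 0.08, 5.80 ± 0.58 and 6.07 ± 0.30 at 8 h high CO2. AT5G66740 had means of 6.38 ± 0.50, 6.08 ± 0.51 and 6.42 ± 0.29 at 0 h and of 3.27 ± 0.34, 3.34 ± 0.47 and 3.19 ± 0.29 at 8 h high CO2. In both, the arrays of the 3 genotypes overlapped at either time. AT5G22390 went from 7.94 ± 0.16, 7.87 ± 0.27 and 8.03 ± 0.05 at 0 h to 5.43 ± 0.51, 5.34 ± 0.64 and 5.37 ± 0.43, and its ambient means were higher by 0.79, 0.52 and 0.52 log2. AT4G24700 went from 8.47 ± 0.40, 8.42 ± 0.25 and 8.50 ± 0.19 to 5.87 ± 0.28, 5.69 ± 0.18 and 5.53 ± 0.21, with CO2 differences of -0.28, -0.44 and -0.14. AT1G70985 went from 7.38 ± 0.70, 7.58 ± 0.30 and 7.64 ± 0.31 to 5.09 ± 0.36, 5.22 ± 0.38 and 5.12 ± 0.54, with CO2 differences of -0.30, -0.66 and -0.12. The sign of the CO2 difference, bounded by the choice of members, was thus positive in all 3 genotypes for AT5G22390 and negative in all 3 for AT4G24700 and AT1G70985, while AT5G66740 (0.30, -0.16 and 0.16) and AT1G13650 (0.30, -0.97 and 0.60) were of mixed sign.

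The 35 members without a gene name had median differences at high CO2 of -2.75 in WT (-7.17 to -2.03), -2.67 in cat2 (-6.89 to -2.002) and -2.99 in GO5 (-7.22 to -2.20). Their CO2 differences had medians of 0.11, 0.14 and 0.35 log2. At 8 h ambient against 0 h all 56 members were lower in every genotype, with medians of -2.89 in WT, -2.93 in cat2 and -2.85 in GO5 and a least difference of -1.51, -1.32 and -1.37. This difference is the sum of those that chose the members, and like them it has no test.

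AT1G13650 met the conditions on group means and went against them in replicate 3. Its WT arrays read 9.05, 8.56 and 7.15 log2 at 0 h and 4.04, 4.34 and 7.83 at 8 h high CO2. Its cat2 arrays read 8.60, 9.27 and 7.30 and then 6.06, 4.62 and 7.54, and its GO5 arrays read 9.10, 9.09 and 7.25 and then 4.64, 3.52 and 6.59. In replicate 3 the later array was above the earlier one in WT and cat2, and in GO5 the drop was under 1 log2. The limma adjusted p of the fall was 0.126 in WT, 0.242 in cat2 and 0.0471 in GO5 (SE 1.18 each), so that 2 of the genotypes did not pass the threshold. It was 1 of the 2 members not called there in WT and cat2. The other, 266720_s_at, which has no paired gene and is given because of this count, had adjusted p values of 0.17, 0.175 and 0.172.

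**Figure D2:**
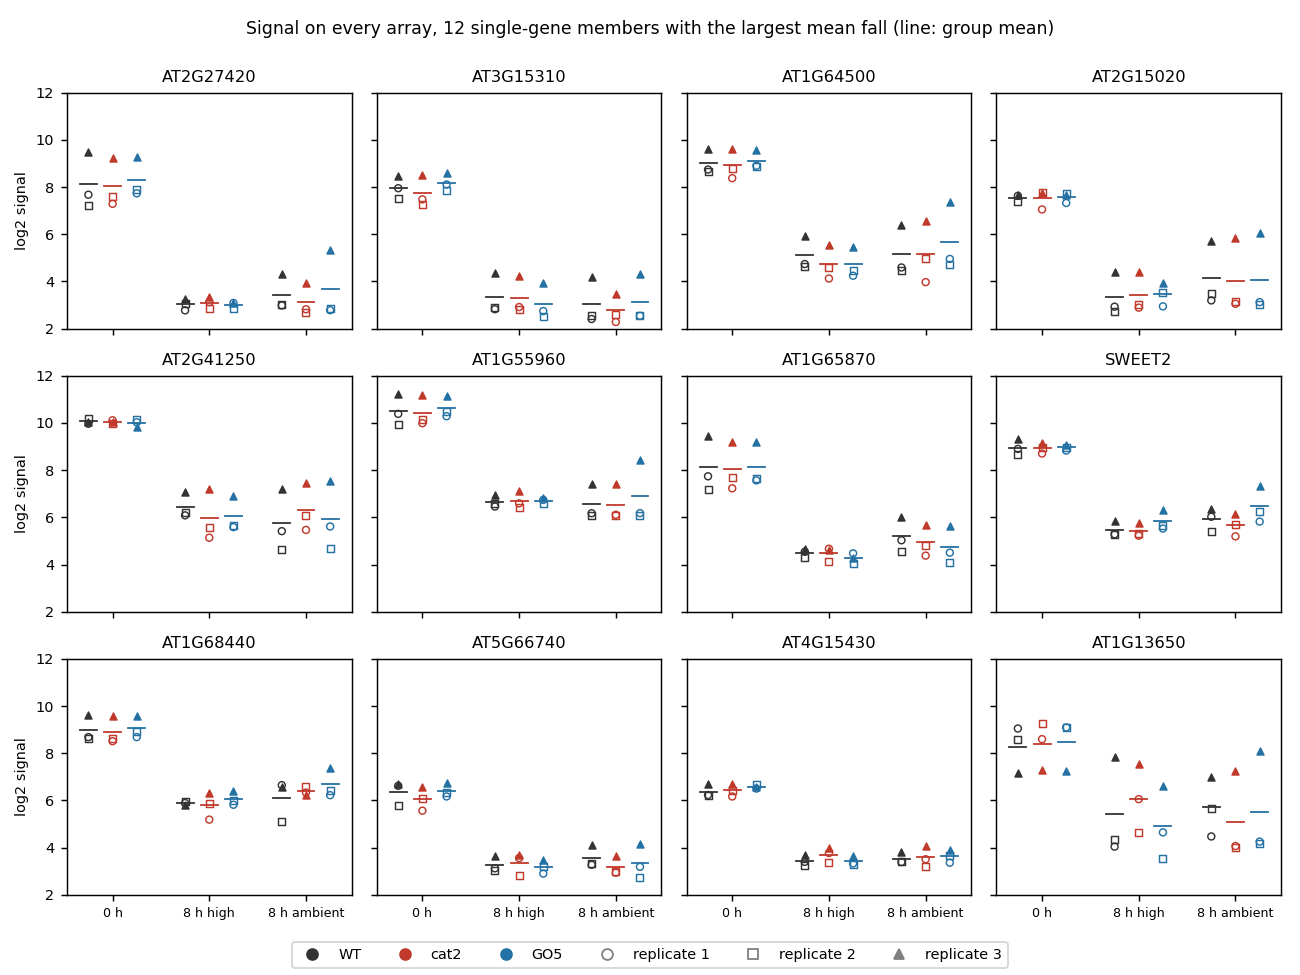
Log2 signal (y axis) on every array of the 12 single-gene members with the largest mean fall, by harvest (x axis), with genotype as colour, replicate number as marker and the group mean as a line. All 9 arrays at 0 h lie above the 18 later arrays except for AT1G13650, and replicate 3 (filled triangles) is often the highest of its group.

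Near the limits the members shade into other probe sets. Just inside the fall limit were 253579_at, with -2.495, -2.002 and -2.684 in WT, cat2 and GO5, and 266892_at, with -2.03, -2.12 and -2.20, given here for their place and not for their role. Just outside stood AT2G04795, with -1.99, -2.43 and -2.05, and AT5G19970, with -1.99, -2.05 and -2.11. AT1G13650, at -0.97 in cat2, was inside the CO2 bound, while AT1G70000, at 1.04 in GO5, and AT1G65490, at 1.06 in cat2, were just outside it. In all, 100 probe sets met the fall limit in every genotype, and the other 44 exceeded the CO2 bound. Each of these 44 was at least 1 log2 higher at ambient than at high CO2 in some genotype, 20 of them in all 3, and 0 were lower by as much in any. They were chosen for a low 8 h high CO2 mean, so nothing is read from this direction.

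Within the bound the CO2 differences of the members also leaned upward. Their median, 8 h ambient minus 8 h high CO2, was 0.14 log2 in WT, 0.13 in cat2 and 0.36 in GO5. They were above 0 in all 3 genotypes in 30 members, below 0 in all 3 in 11 and of mixed sign in 15, and 17 members stayed within 0.5 log2 in every genotype. With replicates 1 and 2 only, the medians were 0.07, 0.01 and 0.06. The limma fit called 0 members in WT (4.77% of all probe sets in either direction, 4 members at an unadjusted p under 0.05), 1 in cat2 (11.3%) and 1 in GO5 (17.7%). The choice of members bounded these differences, and the 8 h high CO2 mean entered both of its conditions. A low mean there makes ambient minus high CO2 larger, so nothing is read from the upward lean or from those counts.

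To see the fall in arrays that did not choose the genes, the same conditions were applied to the means of 2 replicate numbers and the fall was read in the replicate left out. Leaving out replicate 1, 2 or 3 chose 47, 51 or 58 probe sets, of which 40, 42 and 44 were among the 56 members. In the held-out arrays of replicate 1 the median difference was -2.79 in WT, -2.37 in cat2 and -2.83 in GO5. In replicate 2 it was -2.66, -2.75 and -2.95, and in replicate 3 it was -2.72, -2.63 and -2.77. The median falls that chose the genes were -2.64, -2.81 and -2.95 (WT, cat2 and GO5) with replicate 1 held out. With replicate 2 held out they were -2.67, -2.6 and -2.92, and with replicate 3 -2.86, -2.79 and -2.98. Held-out medians were thus shallower in all genotypes for replicate 3 and in cat2 and GO5 for replicate 1, and deeper or nearly equal elsewhere. The least held-out fall in replicate 3 turned to a rise of 0.85 in WT, 0.92 in cat2 and 0.49 in GO5. The fall limit was met in all genotypes of the held-out replicate by 30 of 47, 36 of 51 and 38 of 58 probe sets, and both conditions by 24, 28 and 22. With 1 array per group there is no test of these values.

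The replicate numbers were then compared, since they played no part in choosing the members. This comparison was added after the arrays had been seen. A limma fit with 1 mean per group and 1 term for replicate 3 against the mean of the other 2 called 52 of the 56 members higher in replicate 3 and 0 lower. Over all probe sets 3.1% were called higher and 3.25% lower. The 9 arrays of replicate 3 entered this fit as separate observations. Its p-values therefore measure the spread that remains between arrays, and 1 replicate number against 2 gives little measure of the spread between numbers. The members' median difference was 0.82 log2 (0.20 to 1.71), above 0 in all 56, while the median of all probe sets was 0.005. The same comparison for replicate 1 and for replicate 2 called 0 members and 0 of all probe sets (0.0%). The members' medians there were -0.41 and -0.46 log2, below 0 in all 56. For each probe set the differences of replicates 1, 2 and 3 sum to 0 by construction. These lower values are thus no result apart from that of replicate 3. The fits for replicates 1 and 2 leave the shift of replicate 3 in their error, so nothing is read from their lack of calls. The 4 members not called in replicate 3, named here for that reason, were AT1G13650 (1.36 ± 0.52, adjusted p = 0.131 by limma), 249415_at, 267115_s_at and 266892_at. The labels do not say what the plants of 1 replicate number shared, and the cause was not tested.

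**Figure D3:**
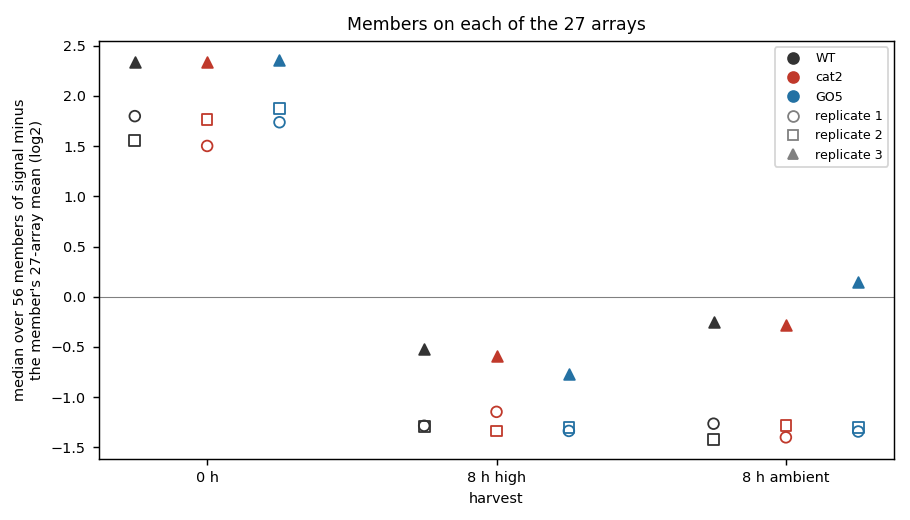
Median over the 56 members of the log2 signal minus each member's own mean over the 27 arrays (y axis), with 1 point per array, by harvest (x axis), genotype (colour) and replicate number (marker). Replicate 3 is the highest array in 9 of 9 groups, by 0.49 to 1.45 log2 over the next.

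Replicate 3 gave the highest array in all 9 groups for 26 members, against 0.633% of all probe sets, and in 7 or more groups for 43 members, against 4.65% of all. The gap of replicate 3 over the mean of the other 2 had a median of 0.66 log2 at 0 h (45 members above 0), 0.61 at 8 h high CO2 (53 above 0) and 1.04 at 8 h ambient (56 above 0). The fall itself, read within replicate numbers, had medians of -2.93, -3.06 and -2.86 in replicates 1, 2 and 3. The shift of replicate 3 thus left the size of the median fall close to that of the others. Of the 56 members 55 were lower at 8 h high CO2 in all 9 pairs of same-numbered arrays, and 32 fell by 2 log2 or more in each of the 9. These are the arrays and the contrast that chose the members, so the counts are a description only. The GAPDH 3' to 5' difference was 1.66 ± 0.17 log2, 1.89 ± 0.45 and 1.63 ± 0.19 in replicates 1, 2 and 3 (SD, n = 9). Its part in the shift of replicate 3 was not tested.

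The members did not share 1 layout of the gap between these times. It was larger at 0 h than at 8 h high CO2 in 29 members and larger at 8 h high CO2 in 27. AT1G65870 (1.77 log2 at 0 h and 0.16 at 8 h high CO2), AT2G27420 (1.76 and 0.27), AT5G54130 (1.60 and 0.23), AT2G28200 (1.40 and 0.20) and TRY (1.01 and 0.09) had a larger gap at 0 h. At 8 h ambient the gap of AT2G27420 was 1.66, that of AT1G65870 1.22 and that of TRY 0.92, near or somewhat under their gap at 0 h, while AT5G54130 had 0.52 and AT2G28200 0.40. AT2G41250 (-0.10 and 1.36), AT1G19450 (0.22 and 1.22) and AT2G15020 (0.21 and 1.22) had a larger one at 8 h high CO2. AT1G13650 was the extreme, with -1.71 at 0 h and 2.79 at 8 h high CO2, and AT3G21670 (0.87 and 1.22) and AT3G15310 (0.82 and 1.40) had it at both. Over all groups the limma difference was 0.61 ± 0.09 for SWEET2 (adjusted p = 0.00052), which had gaps of 0.36 and 0.59, and 1.23 ± 0.11 for AT3G21670 (adjusted p = 1.16e-06).

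**Figure D4:**
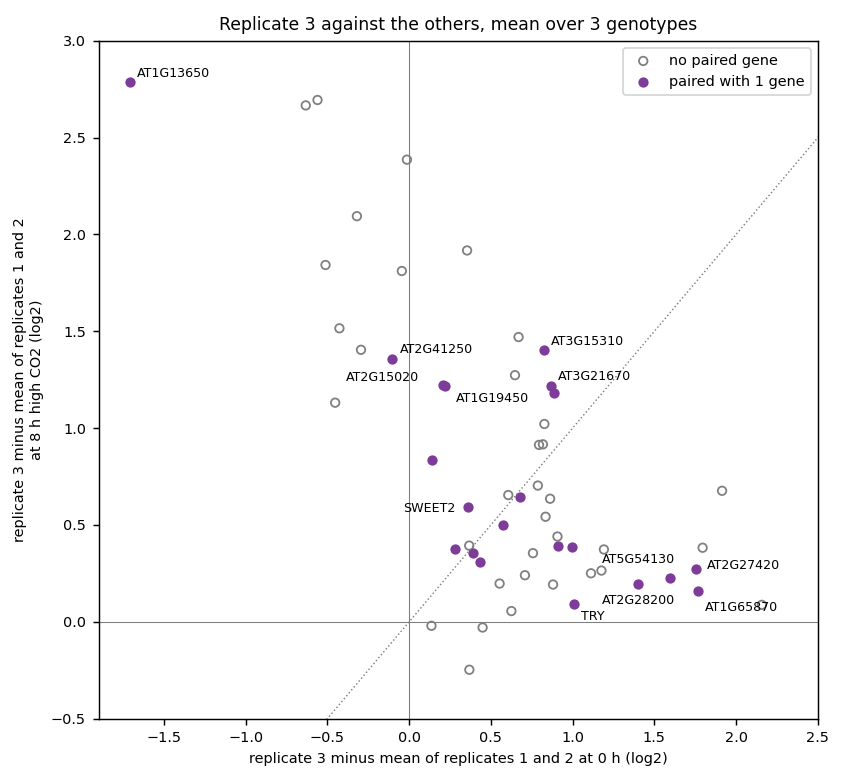
Gap of replicate 3 over the mean of replicates 1 and 2 at 0 h (x axis, log2) and at 8 h high CO2 (y axis, log2), averaged over the 3 genotypes, with 1 point per member and equality as a dotted line. Of the members, 29 lie below the line, TRY and AT2G27420 among them, and 27 above it, AT2G41250 and AT1G13650 among them.

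Other probe sets with a change between 0 h and 8 h were read the same way. Of the 44 that fell but exceeded the CO2 bound, 31 were called higher in replicate 3 and 0 lower, with a median of 0.63 log2. Of 102 probe sets that rose by 2 log2 or more in every genotype with a small CO2 difference, 3 were called higher and 17 lower, with a median of -0.13. The test of the difference between these sets was not made. Within groups the members varied more than most probe sets, with a median SD of 0.35 to 0.80 log2 by group against 0.122 to 0.237 for all. Over replicates 1 and 2 alone the median SD was 0.14 for the members and 0.11 for all. These SDs rest on 2 arrays per group in place of 3, so their sizes are not set against those above.

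Whether cat2 or GO5 had other levels of these transcripts than WT was tested, since differences between genotypes did not enter the choice of members. At 8 h ambient that choice still bears on the counts, because a CO2 difference within 1 log2 in every genotype limits how far a line can differ from WT there. At 0 h and 8 h high CO2 the choice bears too, since a fall missed in any genotype left a probe set out. At 0 h the limma fit called 0 of 56 members in cat2 against WT (0.00879% of all probe sets in either direction, 0 members at an unadjusted p under 0.05) and 0 in GO5 against WT (0.00879%, also 0 unadjusted). The median difference was -0.04 log2 in cat2 (-0.30 to 0.20) and 0.09 in GO5 (-0.17 to 0.41), where 47 of the 56 were above 0. At 8 h high CO2 it called 0 in cat2 (0.00879%, 1 unadjusted) and 0 in GO5 (0.0132%, 0 unadjusted), with medians of 0.03 (-0.49 to 0.67) and -0.05 (-0.49 to 0.49). At 8 h ambient it called 0 in cat2 (0.703%, 0 unadjusted), with a median of 0.002 (-0.60 to 0.77). In GO5 at ambient, where 18.4% of all probe sets were called, it called 1 of 56, and the median was 0.10 (-0.65 to 1.18) with 35 members above 0. With replicates 1 and 2 only, that median turned to -0.07, with 24 members above 0.

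A median SE of 0.45 log2 (0.19 to 1.18) limits these comparisons, and a p above the threshold does not show equal levels. This fit leaves the shift of replicate 3 in its error. With a replicate block the median SE was 0.28 (0.12 to 1.06), and the calls remained 0 at 0 h and 8 h high CO2. With replicates 1 and 2 only the median SE was 0.22 (0.11 to 0.47), and the calls by limma remained 0 in the 4 comparisons at 0 h and 8 h high CO2. At ambient it then called 1 member in cat2, which was higher, and 3 in GO5, of which 2 were higher and 1 was lower. Of all 22746 probe sets it called 405 higher and 372 lower in cat2, and 1561 higher and 1845 lower in GO5. The GAPDH difference at ambient was 2.12 ± 0.61 log2 in WT, 1.60 ± 0.11 in cat2 and 1.49 ± 0.15 in GO5 (SD, n = 3), and its part in these values was not tested.

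The member called in GO5 at ambient was 264745_at, which has no paired gene. Its arrays at 8 h ambient read 7.25, 7.87 and 8.90 log2 in WT, 8.35, 8.62 and 9.04 in cat2 and 8.70, 9.22 and 9.63 in GO5. At 8 h high CO2 they read 8.52, 8.27 and 9.12 in WT and 8.37, 8.41 and 9.20 in GO5. Within each replicate number GO5 was above WT at ambient, but the ranges overlapped, since WT replicate 3 stood above GO5 replicate 1. The difference was 1.18 ± 0.37 (limma, adjusted p = 0.0325). With replicates 1 and 2 only, the same probe set was called in GO5 (1.40 ± 0.20, adjusted p = 0.00153 by limma) and in cat2 (0.93 ± 0.20, adjusted p = 0.0292). It was not called without replicate 1 or 2 of WT ambient, without replicate 2 or 3 of GO5 ambient, or in a fit on only the arrays compared. Among named members none passed the threshold, and the lowest adjusted p of any in the 6 comparisons was 0.269 (limma, GO5 against WT at ambient).

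**Figure D5:**
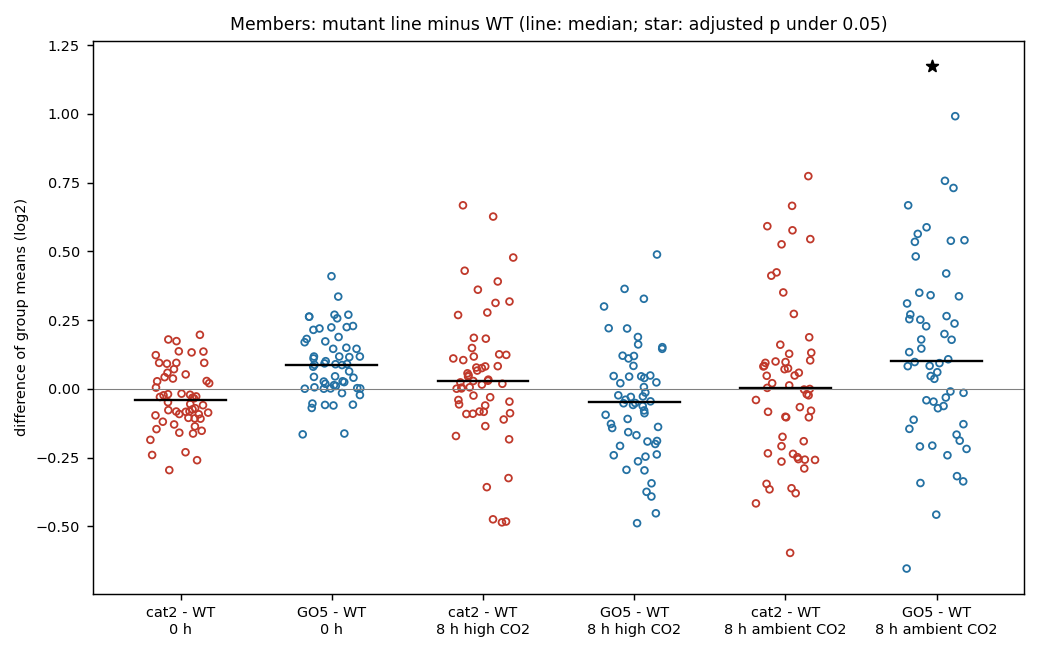
Difference of group means from WT (y axis, log2) for each of the 56 members in the 6 comparisons of a line with WT (x axis), with a bar at the median. The medians lie between -0.05 and 0.10, and the star is the 1 member called by limma, 264745_at at 1.18 in GO5 at ambient CO2.

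Of the 44 probe sets that fell as well but exceeded the CO2 bound, limma called 8 in GO5 against WT at ambient, 7 higher and 1 lower, where it called 18.4% of all probe sets. The CO2 bound was applied within genotypes, so that a probe set with a wide CO2 difference in GO5 belongs to the 44 by choice, and the test of the difference between both sets was not made.

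Genes of clock, sugar, starch, growth, nitrogen, light and cold function were listed to place the members. Of 128 such genes in 9 lists, 20 were measured by a single-gene probe set, in 8 of the lists, and none of them was a member. The 35 members without a gene name could not be matched to any list, so listed genes may be among them unseen. Between 0 h and 8 h at high CO2, limma called 8 of the 20 higher and 2 lower in WT (6.88% and 6.5% of all probe sets), 8 and 2 in cat2 (6.62% and 5.92%), and 9 and 2 in GO5 (7.0% and 6.87%). The lists were chosen with earlier results of these data known, so nothing is read from these counts against those shares. The 2 that fell were CDF5, a Dof repressor of flowering genes (-2.29 ± 0.23, -1.99 ± 0.23 and -2.10 ± 0.23 in WT, cat2 and GO5), and RVE5, a MYB-like clock protein (-1.06, -0.73 and -0.74). CDF5 thus missed the limit for members by its value in cat2.

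The listed genes called higher in every genotype over the same hours were of the evening clock, clock output, starch and cold lists. GI, an evening clock protein, rose by 3.70, 3.53 and 3.49 log2 in WT, cat2 and GO5. COR27 (4.56, 4.33 and 4.35) and COR28 (4.12, 4.19 and 4.24), cold-induced regulators tied to the clock, rose as well. The starch enzymes PWD, a phosphoglucan water dikinase (2.33, 2.55 and 2.16), and DPE1, a disproportionating enzyme (2.76, 2.88 and 2.71), rose by over 2 log2. COR15B (5.02, 5.51 and 4.82), COR15A (2.92, 3.46 and 2.68) and LTI30 (2.08, 2.61 and 2.24), proteins of cold and drought protection, were also called higher in every genotype. SEN5, a gene raised by sugar shortage, was called in GO5 only, at 1.91 log2 against 1.03 in WT and 0.50 in cat2, and the difference between genotypes was not tested for this contrast.

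The same genes gave another view of replicate 3. COR27 was lower there by 1.93 ± 0.33 log2 (limma, adjusted p = 0.0012), with a gap of -0.11 at 0 h, -3.65 at 8 h high CO2 and -2.03 at 8 h ambient. COR28 was lower by 1.36 ± 0.25 (adjusted p = 0.00223 by limma), COR15A by 1.06 ± 0.20 (0.00311) and COR15B by 0.99 ± 0.22 (0.00912). RVE5 was higher by 0.43 ± 0.05 (adjusted p = 5.07e-05), and bZIP53 of the sugar list was lower, at -0.235 ± 0.059 (limma, adjusted p = 0.0192). GI at 0 h was 1.12 log2 higher in replicate 3, as were PWD by 1.51 and DPE1 by 1.44. At 8 h high CO2 their gaps were -0.23, -0.62 and -0.12. The widest gaps of listed genes at 0 h were negative, at -2.22 for IAA29 and -1.87 for EXPA8 of the growth list. At 8 h high CO2 the gap was 0.84 for IAA29 and 0.91 for EXPA8. KINBETA1 of the sugar list was at -1.07 at 0 h and at -0.06 at 8 h high CO2. Over all groups limma called none of these genes with a gap at 0 h. Replicate 3 thus differed from the others in listed genes that rose between 0 h and 8 h as well as in the members.

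The profile of the members over the 9 groups was set against 13492 single-gene probe sets that are no members. The highest Pearson correlations with the mean member profile over 9 group means, given as a description, belonged to AT2G25430 (0.9966), AT3G13040 (0.9951), LYC (0.9948), PLIM2a (0.994) and AT5G19970 (0.9939). LYC is lycopene beta-cyclase of carotenoid synthesis and PLIM2a a LIM-domain protein that binds actin. Their fall in WT was smaller than that of the members, at -0.45 for AT2G25430, -1.29 for AT3G13040, -1.18 for LYC, -1.20 for PLIM2a and -1.99 for AT5G19970. A correlation over group means takes no account of the size of a change, and the 9 means share arrays with those that chose the members.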

How the data were processed

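RNA from 27 pools of 2 rosettes was labelled with the GeneChip 3' IVT Express kit, per the labels' protocols. The values are log2 signals of probe sets as the authors deposited them. RMA, GCRMA, affy and R 2.15.0 are named per the submitters' processing notes, and which of RMA and GCRMA made the values was not settled. Value columns matched to no sample numbered 0. The values hold no detection calls, so that signals near the low end, where 18 members had every 8 h high CO2 mean under the 40th percentile of mean signal (4.54 log2), give compressed differences.

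Without 64 control probe sets 22746 remained, 13513 paired with 1 gene, 503 with several and 8730 with none by the platform annotation. R 4.3.3 and limma 3.58.1 were used to fit 1 mean per group over the 27 arrays with empirical Bayes variances, two-sided, with Benjamini-Hochberg adjustment over all probe sets of a comparison and a call at an adjusted p under 0.05. An error after ± is the SE of a fitted difference unless SD is written. The fit was tested on simulated data. The p-values measure the spread between biological replicates that the labels number 1 to 3. Those of the fits on replicate number are the exception, as they measure the spread that remains between arrays. Fits on replicates 1 and 2 and on replicate number were added after seeing the data. Alternatives were quantile normalization, median centring, trend and robust variances, dim probe sets left out, only the arrays compared, a replicate block, each array left out and other limits for members.

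The members and lists were chosen with earlier results of these data known. Any single-gene member may be named. Described in full are the 12 with the most negative mean fall. Named with a test are up to 6 called single-gene members per comparison with WT, up to 6 called genes per list, 3 probe sets on each side of a limit and the 5 genes with the most similar profile, and at most 2 probe sets without a gene, others being named only where a count or limit asked for it. Promoter motifs, planned as a description, and sequences are not used here.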

Additional observations from a re-analysis of the deposited data

How the results depend on the processing

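Of the comparisons with WT, the counts of 0 members at 0 h and at 8 h high CO2 stayed at 0 under every alternative run. In cat2 at ambient CO2 the count of 0 became 1 with the replicate block, where 139 of all 22746 probe sets were called higher and 77 lower. It became 1 with replicates 1 and 2 only (405 and 372 of all) and stayed at 0 with each array left out. In GO5 at ambient the count of 1 became 2 with dim probe sets left out (1801 higher and 2134 lower of all 13648 tested). It became 2 with the replicate block (2140 and 2475 of 22746), 0 with only the arrays compared (187 and 19) and 3 with replicates 1 and 2 only (1561 and 1845). Leaving out 1 array gave 0 to 3. It was 0 without WT ambient replicate 1 (1465 higher and 1624 lower of all) or 2 (2593 and 2596) or GO5 ambient replicate 3 (1712 and 1839). It was 3 without WT ambient replicate 3 (1876 and 2256). Without GO5 ambient replicate 2 (931 and 995 of all) the 1 call was another probe set, 249415_at, named for that reason. Deviations of same-numbered arrays were only weakly correlated in at least 1 of the 3 pairs of every comparison. For GO5 against WT the correlations were 0.13, 0.00 and 0.79 at 0 h. At ambient they were 0.09, 0.06 and 0.50, and so above 0 in all 3 pairs. The numbers were not taken as pairs in the main fit, which leaves the shift of replicate 3 in its error, and the block is given as an alternative. The count of 2 listed genes that fell between 0 h and 8 h at high CO2 was 1 to 2 in cat2 and 1 to 2 in GO5 with 1 array left out, and 2 in WT. It was 1 without replicate 1 or 2 of cat2 at 8 h high CO2, replicate 2 or 3 of cat2 at 0 h, replicate 1 or 2 of GO5 at 8 h high CO2 or replicate 3 of GO5 at 0 h. The cause of these changes was not tested, beyond the smaller number of arrays. The number of members was 115 with a fall limit of 1.5, 36 with 2.5 and 17 with a CO2 bound of 0.5, as those limits choose more or fewer probe sets, 57 after quantile normalization, 62 after median centring and 47 to 58 without 1 replicate number. With replicates 1 and 2 only, 44 of the 56 met both conditions again. The median of GO5 minus WT at ambient over the members turned from 0.10 to -0.07 log2 with replicates 1 and 2 only, where 2 of the 3 calls were higher and 1 lower. The spread of replicate 3 limits what can be called.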
